A study of Homo sapiens with 6 samples.

Results

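Nuclear receptors are transcription factors, most of which are switched by small lipid-soluble ligands such as steroids, retinoids, thyroid hormone, fatty acids and oxysterols. Most bind DNA as dimers, many of them with a retinoid X receptor as the partner, and exchange corepressor for coactivator proteins when ligand binds. The orphan receptors have no settled natural ligand or were named before one was proposed, and several of them act in neural development, circadian timing and metabolism. Glucocorticoid and retinoid receptors are also well known in the kidney. The family was followed here through a list of 46 receptor genes. Every probe set that the platform annotation assigned to exactly 1 of these genes was taken, which gave 125 of the 41751 probe sets in the table and 39 of 18338 genes. These were 5 steroid receptors, 9 receptors of retinoids, thyroid hormone and vitamin D, 5 lipid-sensing receptors and 20 orphan receptors. NR1H2, NR1H4, NR1I2, NR1D1, HNF4A, NR2F2 and NR0B1 had no such probe set and are not analysed here. A receptor had from 1 to 9 probe sets, with a median of 3, and 8 receptors rested on 1 probe set.

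Transcripts were measured on 6 Affymetrix HG-U133 Plus 2.0 arrays of 2 stable Tet-On HEK293 cell lines, the established human embryonic kidney line. The 3 myocilin arrays came from the line transfected with a vector that expresses myocilin, a secreted protein of the eye's trabecular meshwork, and the 3 control arrays from the line transfected with the control vector. Both lines were grown in medium with Tet-approved fetal bovine serum, penicillin, streptomycin, hygromycin B and G418, and the treatment note, worded alike for both, gives doxycycline at 0.2 or 1 µg/ml for 48 h. The dose behind an array is not stated, and a doxycycline description is attached to the myocilin samples only, so exposure to the drug cannot be told apart from the vector. Each condition is 1 stable line, and no label speaks of independent cultures behind its arrays. A p-value here therefore reflects array-to-array spread alone, which could be technical. Serum carries steroids, retinoids and thyroid hormone, and no receptor ligand is named as added.

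Values are the authors' processed log2 values, centred by a method that is not stated, and every array has a median of 0. They show differences between arrays and no level, so whether a receptor was expressed above background could not be read, nor could the identity of the cells be checked from marker levels. MYOC, the inserted gene, was higher on the myocilin arrays by 7.99 ± 0.35 (log2, SE, limma adjusted p = 4.7007e-06). Its 1 probe set read -8.32 to -6.71 on the control arrays, and the size depended on processing, being 5.09 under quantile normalisation. Of the other reference genes, TBP was called higher by 0.21 (limma adjusted p = 0.0443), as large as the PPARA call of 0.21 and near the RARA call of 0.19. The TBP call was lost without any 1 of the 6 arrays. GAPDH, PPIA, HPRT1 and ACTB differed by -0.10, -0.07, -0.06 and -0.03 and did not pass. Marker lists of other cell types were compared too. Among 14 neural and adrenal markers 3 rose and 1 fell (28.6%, beside 15.6% of all genes), with a median difference of 0.04. The list mean was 0.09 to 0.11 on the myocilin arrays and -0.08 to -0.05 on the control arrays. That mean takes in the called genes, NEFM at 1.42, NEFH at 0.67, INA at 0.35 and SYT1 at -0.61. Of 14 kidney epithelial markers 2 rose and 0 fell (14.3%, 7 at an unadjusted limma p under 0.05, and 0 past the threshold by a test with separate variances for each line), with list means of 0.08 to 0.10 and -0.07 to -0.00086. Over all genes, 5503 of 18338 had an unadjusted limma p under 0.05, the background for every such gene count below. Of 12 fibroblast and blood markers 1 rose and 0 fell (8.33%), with overlapping list means of -0.0074 to 0.05 on myocilin arrays and -0.04 to 0.06 on control arrays.

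The 3 receptor genes that passed the threshold in every limma fit run are PGR, NR2E1 and NR2F1. Their promoters are shown because these genes carry the differences described next. Each covers 250 bases before to 50 bases after the gene's start, from RefSeq on GRCh38.p14, 5′ to 3′ on the gene's strand. Where RefSeq lists several starts, as for PGR, the most upstream one was used. The windows are chr11:101129764-101130063 on the minus strand for PGR, chr6:108165772-108166071 on the plus strand for NR2E1 and chr5:93582972-93583271 on the plus strand for NR2F1. Capitals mark matches, on either strand, to any of 6 motifs searched.
PGR: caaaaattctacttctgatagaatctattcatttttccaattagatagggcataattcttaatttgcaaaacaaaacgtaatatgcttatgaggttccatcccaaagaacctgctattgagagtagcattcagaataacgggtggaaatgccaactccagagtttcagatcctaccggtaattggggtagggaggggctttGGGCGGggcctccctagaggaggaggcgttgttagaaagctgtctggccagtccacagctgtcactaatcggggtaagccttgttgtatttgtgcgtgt
NR2E1: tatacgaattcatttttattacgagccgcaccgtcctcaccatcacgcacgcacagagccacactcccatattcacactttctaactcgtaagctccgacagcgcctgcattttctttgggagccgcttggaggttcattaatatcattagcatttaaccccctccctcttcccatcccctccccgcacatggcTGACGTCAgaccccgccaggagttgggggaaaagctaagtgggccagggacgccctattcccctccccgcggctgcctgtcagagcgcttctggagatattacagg
NR2F1: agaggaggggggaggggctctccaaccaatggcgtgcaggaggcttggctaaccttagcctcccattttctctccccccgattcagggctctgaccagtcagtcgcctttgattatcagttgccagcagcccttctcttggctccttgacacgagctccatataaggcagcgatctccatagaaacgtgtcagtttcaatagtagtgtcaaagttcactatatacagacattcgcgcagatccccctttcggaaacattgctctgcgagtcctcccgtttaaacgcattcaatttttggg
The motifs were AGGTCA, the core bound by most receptors of the family, AGAACA, the core bound by the glucocorticoid and progesterone receptors, TGANTCA for AP-1, TGACGTCA for cAMP response element binding factors, CACGTG for E-box factors and GGGCGG for the GC box. The PGR window held 1 GC box. The NR2E1 window held 1 TGACGTCA, and the NR2F1 window held 0 of the motifs. Promoters were matched for 34 of the 39 receptors, with HNF4G not searched. AGGTCA occurred in 5 of the 34 (14.7%) and in 11.2% of the 14401 promoters of measured genes, AGAACA in 4 (11.8%, against 10.7%) and TGANTCA in 3 (8.8%, against 5.5%). TGACGTCA occurred in 2 (5.9%, against 2.7%), CACGTG in 2 (5.9%, against 9%) and GGGCGG in 19 (55.9%, against 60.6%). A match describes the letters of the window and is not a site shown to be bound.

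The comparison of the lines asked which receptor transcripts differed with the myocilin vector. Of the 39 receptor genes, 5 rose and 3 fell, and 31 did not pass the threshold (limma, Benjamini-Hochberg adjusted p under 0.05 over 18338 genes). The called share was 20.5%, beside a background of 15.6% over all genes (8.28% higher and 7.35% lower), so the share of the family lay near that of the table. The median log2 difference was 0.03 for receptors and 0.02 for all genes, and the median absolute difference 0.12 and 0.10. The arrays of the lines did not overlap for 19 receptors, 11 higher and 8 lower, beside 34.9% of all genes. In bulk extracts, fewer cells with a transcript and less of it per cell cannot be told apart. The receptors that rose were PGR, NR2E1, RXRA, PPARA and RARA, and those that fell were NR2F1, NR2C2 and NR3C1. At the level of probe sets 9 of 125 rose and 4 fell, 10.4% beside 11% of all probe sets (5.46% higher and 5.56% lower). The arrays of the lines did not overlap for 40 of the 125, beside 30.4% of all probe sets.

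**Figure D1:**
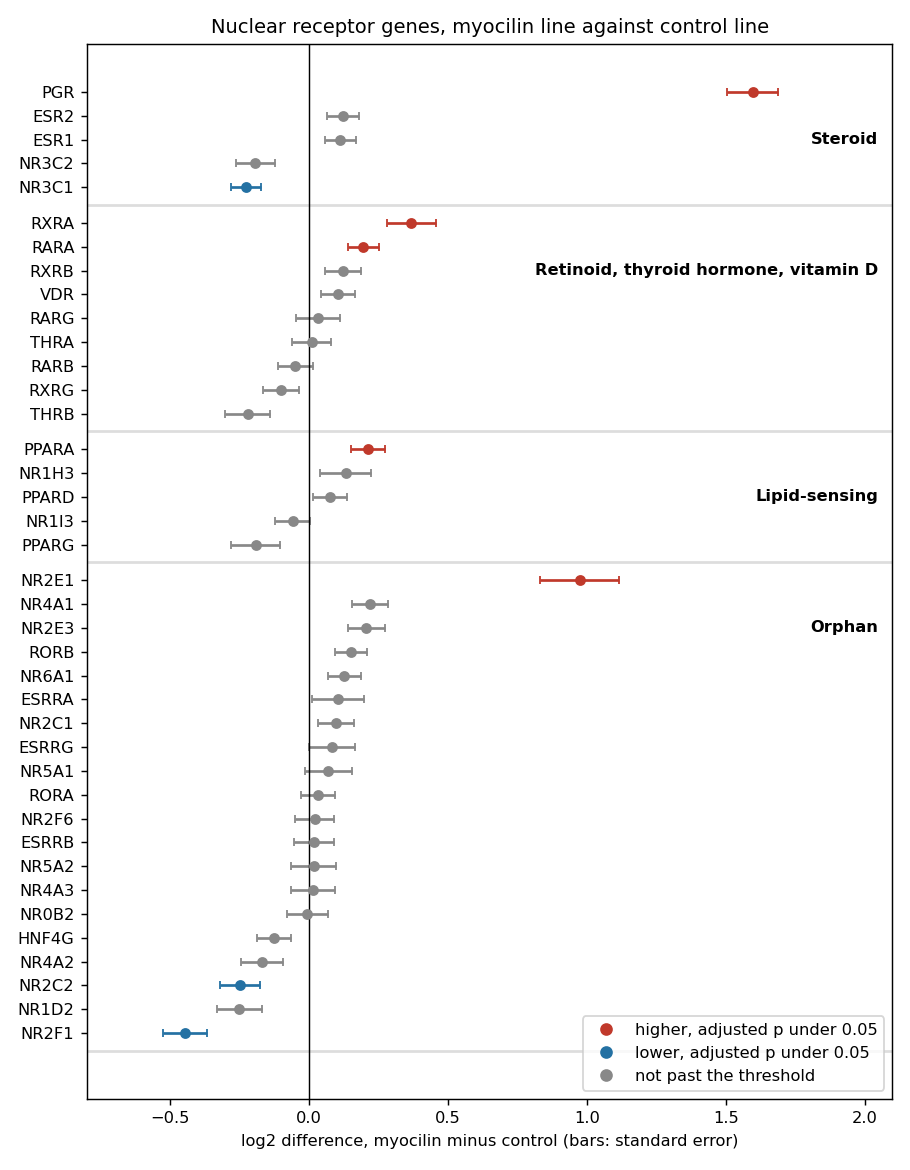
Log2 difference between the myocilin and the control line (x axis) for each of the 39 measured receptor genes (y axis), grouped by subfamily, with bars of 1 standard error and colours for calls at an adjusted p under 0.05. PGR at 1.60 and NR2E1 at 0.97 lie far from the other receptors, which fall between -0.45 and 0.37.

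Among the steroid receptors, which are held by heat shock protein complexes until hormone binds, PGR rose and NR3C1 fell. These 2 calls among only 5 genes made a share of 40%, beside 15.6% of all genes. PGR encodes the progesterone receptor, itself a classical target of the oestrogen receptor. As the mean of its probe sets it read 1.22, 1.22 and 1.09 on the myocilin arrays and -0.29, -0.63 and -0.35 on the control arrays. The groups were far apart, with means of 1.17 ± 0.08 and -0.42 ± 0.18 (SD, n = 3 each). The log2 difference of 1.60 ± 0.09 (SE), 3.03-fold, ranked 15 by size among all genes (limma adjusted p = 1.9926e-05). Both probe sets rose but by different amounts. The first read 2.03, 2.25 and 1.86 on myocilin arrays and -0.48, -0.82 and -0.48 on control arrays, a difference of 2.64 ± 0.12 (SE). The second read 0.40, 0.19 and 0.31 on myocilin arrays and -0.09, -0.45 and -0.22 on control arrays, a difference of 0.55 ± 0.10 (SE, adjusted p = 0.00822), which is also the gene's difference when it rests on that probe set alone. The median of the 50 measured genes nearest to PGR on chromosome 11, taken on each array, differed by -0.0014 between the lines. Without any 1 of the 6 arrays PGR differed by 1.49 to 1.67, and the call stood each time.

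NR3C1, the glucocorticoid receptor, was lower on every myocilin array. It read -0.19, -0.10 and -0.16 there and 0.06, 0.10 and 0.07 on the control arrays, a small but complete separation. The difference was -0.23 ± 0.05 (SE, limma adjusted p = 0.0231), and its 4 probe sets all pointed down, at -0.29 to -0.18, with the lowest of them past the threshold (adjusted p = 0.0349). The call was lost without any 1 array other than myocilin array 2 (differences from -0.25 to -0.21 over the 6 left-out arrays, adjusted p up to 0.0916). NR3C2, the mineralocorticoid receptor of salt handling, read -0.10, -0.0022 and -0.20 on myocilin arrays and 0, 0.15 and 0.13 on control arrays, a difference of -0.19 (adjusted p = 0.0986). The oestrogen receptor genes ESR1 and ESR2 differed by 0.11 and 0.12 (adjusted p = 0.22 and 0.191). Of their 15 probe sets 0 passed the threshold, by limma or with separate variances. At an unadjusted limma p under 0.05 there were 4 of the 15, beside 37 of all 125 receptor probe sets. For all 5 steroid receptors the arrays of the lines did not overlap, beside 34.9% of all genes, and 3 of these did not pass the threshold. Their 2 calls were opposite in sign.

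Among the receptors of retinoids, thyroid hormone and vitamin D, 2 of 9 rose and 0 fell (3 at an unadjusted limma p under 0.05 and 0 past the threshold with separate variances), with a median difference of 0.03. The called share was 22.2%, beside 15.6% of all genes. RXRA encodes a retinoid X receptor, the shared dimer partner of many other members. It read 0.25, 0.09 and 0.08 on the myocilin arrays and -0.19, -0.09 and -0.41 on the control arrays. The groups did not overlap, although the control arrays were spread. The difference was 0.37 ± 0.09 (SE, adjusted p = 0.0222), with 1 probe set at 0.48 past the threshold and the other at 0.25 not (adjusted p = 0.117). The median of its 50 nearest genes on chromosome 9 also stood higher, by 0.19, the largest neighbour value of any receptor. With that median subtracted RXRA differed by 0.17 and was not called (adjusted p = 0.243), and the call was also lost without control array 3 (0.28, adjusted p = 0.057) and without myocilin array 1 (0.31, adjusted p = 0.0832).

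RARA, a receptor for all-trans retinoic acid, was higher by a smaller amount. It read 0.08, 0.12 and 0.08 on myocilin arrays and -0.09, -0.16 and -0.05 on control arrays. The arrays of each line lay close together and the groups did not overlap, giving 0.19 ± 0.06 (SE, adjusted p = 0.0451). Of its 5 probe sets, 1 passed, at 0.41 (adjusted p = 0.0136), and the others ran from -0.05 to 0.31. The call was lost without any 1 of the 6 arrays (0.17 to 0.22, adjusted p from 0.0636 to 0.125). The other retinoid receptors RARB, RARG, RXRB and RXRG differed by -0.05, 0.03, 0.12 and -0.10 and did not pass, though 1 of the 3 RXRB probe sets rose by 0.30 (adjusted p = 0.0442). VDR, the vitamin D receptor, and THRA, a thyroid hormone receptor, differed by 0.10 and 0.01, neither past the threshold.

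THRB, the other thyroid hormone receptor, showed probe sets that disagreed. The first of its 3 probe sets read 0, -0.18 and -0.31 on the myocilin arrays and 0.24, 0.56 and 0.24 on the control arrays, a fall of 0.51 (adjusted p = 0.0177). The second fell by 0.31 (adjusted p = 0.0491), while the third stood at 0.16 (adjusted p = 0.437). Both probe sets that fell had all myocilin arrays below all control arrays, and the third overlapped. The gene mean differed by -0.22 ± 0.08 (SE, adjusted p = 0.0949), and it passed without control array 3 (-0.30, adjusted p = 0.0301).

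**Figure D2:**
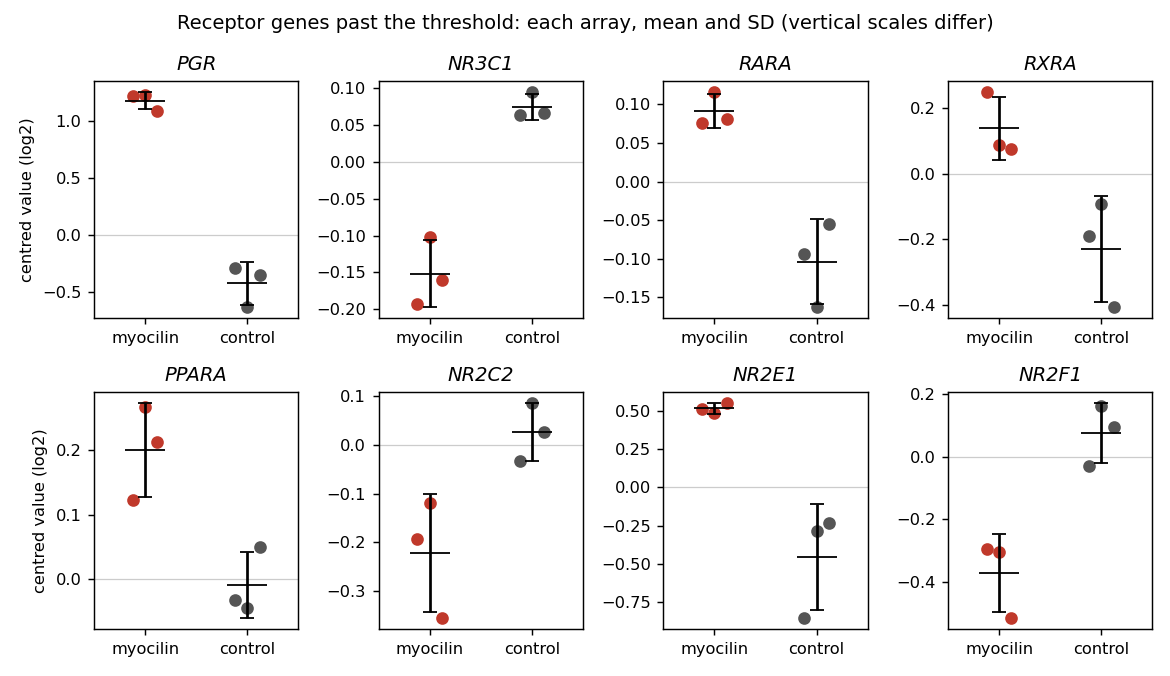
Centred log2 value (y axis) of the 8 receptor genes past the threshold on each of the 3 myocilin arrays (left) and 3 control arrays (right), with the mean and SD of each line. No gene has overlapping groups, while the vertical scale of PGR spans several times that of NR3C1 or RARA.

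Of the lipid-sensing receptors, which bind fatty acids, oxysterols, bile acids and foreign compounds, 1 of 5 measured rose and 0 fell, 20% beside 15.6% of all genes (1 at an unadjusted limma p under 0.05 and 0 past the threshold with separate variances). PPARA, the fatty acid receptor that drives fat oxidation, read 0.12, 0.27 and 0.21 on myocilin arrays and -0.03, -0.04 and 0.05 on control arrays. Each myocilin array lay above each control array, by 0.21 ± 0.06 on average (SE, adjusted p = 0.0478). All of its 9 probe sets were positive, from 0.05 to 0.32, and the highest of them passed (adjusted p = 0.0226). PPARA lost the call in all 13 alternatives run, with the 6 left-out arrays giving 0.18 to 0.25 and the subtraction of its neighbours on chromosome 22, themselves at 0.09, giving 0.12. PPARD, PPARG, the master factor of fat cells, NR1H3, an oxysterol receptor, and NR1I3, a sensor of foreign compounds, differed by 0.08, -0.19, 0.13 and -0.06. For these 4 genes the groups overlapped and the test was not passed.

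The orphan receptors had 1 rise and 2 falls among 20 measured, 15% called beside 15.6% of all genes. NR2E1, known as TLX, is a transcriptional repressor that keeps neural stem cells dividing. The gene rests on 1 probe set, with values of 0.51, 0.49 and 0.56 on the myocilin arrays and -0.85, -0.28 and -0.23 on the control arrays. The myocilin arrays were tight, at 0.52 ± 0.03, and the control arrays spread, at -0.46 ± 0.35 (SD, n = 3 each), control array 1 being the lowest. The difference of 0.97 ± 0.14 (SE), 1.96-fold, had an adjusted p of 0.00232 and ranked 65 by size among all genes. Without control array 1 it was 0.77 and without any other 1 array up to 1.09, and the call stood each time. The neighbours of NR2E1 on chromosome 6 stood at 0.10. Of the 14 neural and adrenal markers given above, 4 passed in the same comparison, NEFM at 1.42, NEFH at 0.67 and INA at 0.35 among the rises and SYT1 at -0.61 as the fall, and their part in the NR2E1 difference was not tested. The 2 probe sets of NEFM stood at 0.17 and 2.66, and the neighbours of INA on chromosome 10 at 0.14.

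NR2F1, known as COUP-TFI, represses transcription and patterns the developing cortex. It too rests on 1 probe set, with values of -0.30, -0.31 and -0.52 on the myocilin arrays and -0.03, 0.16 and 0.09 on the control arrays. All myocilin arrays were lower, and the difference was -0.45 ± 0.08 (SE, adjusted p = 0.0059), 1.36-fold lower. It held without any 1 array, at -0.50 to -0.38. NR2C2, known as TR4, read -0.19, -0.12 and -0.36 on myocilin arrays and -0.03, 0.09 and 0.03 on control arrays. That is a fall of 0.25 ± 0.07 (SE, adjusted p = 0.0465), with both probe sets near it, at -0.26 and -0.24, but neither past the threshold by itself. It was lost without any 1 array other than myocilin array 2, the 6 left-out arrays giving -0.30 to -0.18. Its close relative NR2C1 differed by 0.10 (adjusted p = 0.356), although 1 of its 4 probe sets, at 0.23, 0.25 and 0.22 on myocilin arrays and -0.03, 0.02 and -0.01 on control arrays, rose by 0.24 (adjusted p = 0.0477).

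The NR4A receptors are immediate early genes that act without ligand. NR4A1 read 0.15, 0.06 and 0.15 on myocilin arrays and -0.05, -0.20 and -0.04 on control arrays, a difference of 0.22 ± 0.06 (SE) just short of the threshold (adjusted p = 0.051). Array weights brought it past the threshold (adjusted p = 0.0468), as did trended robust variances (adjusted p = 0.0468). NR4A2 stood at -0.17 (adjusted p = 0.164) and NR4A3 at 0.01 (adjusted p = 0.938), so the 3 did not share a direction. The clock repressor NR1D2 read -0.12, -0.28 and -0.41 on myocilin arrays and -0.03, 0.06 and -0.09 on control arrays, a difference of -0.25 (adjusted p = 0.0665) that passed without myocilin array 1 (-0.33, adjusted p = 0.0374). RORA, which acts on the same DNA elements as an activator, stood at 0.03 over 8 probe sets, of which 1 rose by 0.33 (adjusted p = 0.0385) and the others ran from -0.15 to 0.09. RORB stood at 0.15 and NR2E3, a photoreceptor cell factor, at 0.21, both without overlap and neither past the threshold (adjusted p = 0.11 and 0.0701). The oestrogen-related receptors ESRRA, ESRRB and ESRRG of energy metabolism stood at 0.10, 0.02 and 0.08, NR5A1 and NR5A2 of steroid-producing and liver cells at 0.07 and 0.02, and NR6A1, a germ cell factor, at 0.13. HNF4G stood at -0.13, NR2F6 at 0.02 and NR0B2, a corepressor-like receptor that lacks a DNA-binding domain, at -0.01. None of these passed.

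**Figure D3:**
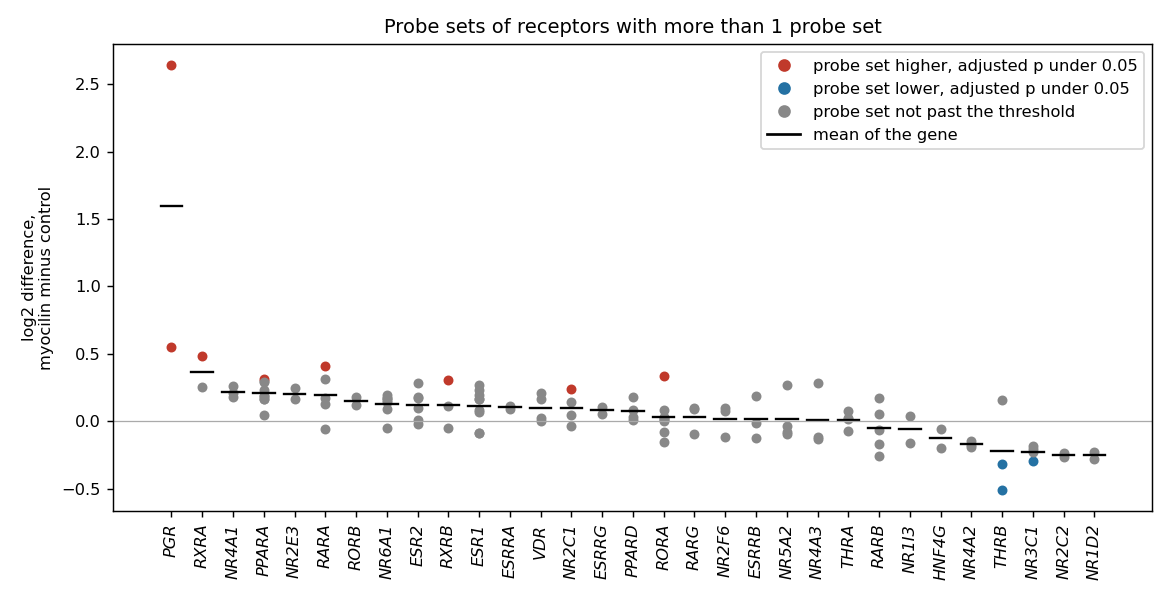
Log2 difference between the myocilin and the control line (y axis) of each probe set (points) for receptors with more than 1 probe set (x axis, ordered by the gene mean, black line). PGR has probe sets at 0.55 and 2.64, and THRB has 2 probe sets that fell and 1 at 0.16.

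Position on the chromosomes was compared with the receptor values because some groups of neighbouring genes differed together between the lines. The difference of the median of the 50 nearest genes ranged from -0.08 at RORA to 0.19 at RXRA, and 8 of the 39 receptors had neighbours above 0.08. PGR, NR2E1, NR2F1 and NR3C1 were called after subtraction of their neighbours (1.60, 0.87, -0.38 and -0.25), while RXRA, PPARA, RARA and NR2C2 were not (0.17, 0.12, 0.18 and -0.24). RARA and NR2C2 hardly moved, their neighbours standing at 0.01 and -0.0055. All 5 receptors on chromosome 3, noticed after their values were seen, were negative: NR1D2 at -0.25, NR2C2 at -0.25, THRB at -0.22, PPARG at -0.19 and RARB at -0.05. Their neighbours stood between -0.01 and -0.0053, and the 1026 measured genes of the chromosome had a median of -0.02. NR1D2, THRB and RARB lie next to each other there, with LINC00691 as the only other measured gene among them.

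**Figure D4:**
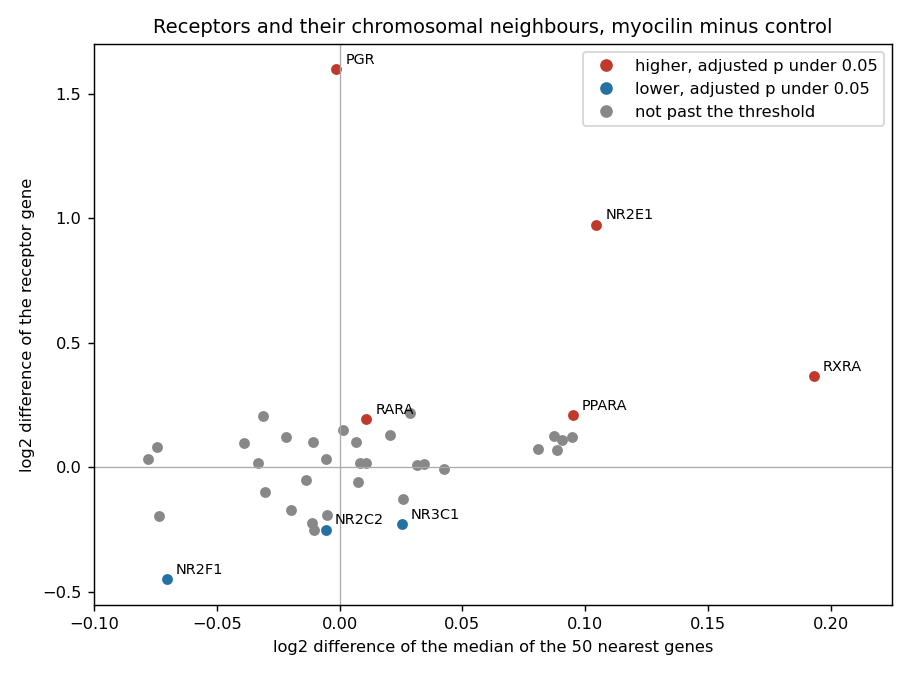
Log2 difference of each receptor gene (y axis) against the log2 difference of the median of its 50 nearest measured genes on the chromosome (x axis), myocilin minus control, with the 8 called receptors named. RXRA lies furthest to the right at 0.19, while PGR sits at -0.0014.

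Genes of the receptors' partner proteins were called in both directions. These calls, and those of the ligand and target lists below, are limma calls. With separate variances for each line, 1 of 18 corepressors passed the threshold and 0 genes of any other of these lists. Of 27 coactivators 4 rose and 1 fell (median -0.02), with PPRC1 and PPARGC1B, of the PGC-1 family that drives mitochondrial genes, at 0.54 ± 0.06 and 0.26 ± 0.06 (log2, SE). NCOA4 stood at 0.35 and the Mediator subunit MED1 at 0.22, and BRD8, named after its value was seen, fell by 0.25. Of 18 corepressors CTBP2 rose by 0.26 and TBL1XR1 and BCOR fell by 0.25 and 0.19. The called shares, 18.5% and 16.7%, lay near the 15.6% of all genes. PPRC1, NCOA4 and CTBP2 lie on chromosome 10, where their neighbours stood at 0.14, 0.06 and 0.12. Among 14 chaperones of steroid receptors, BAG1, which binds HSP70, fell by 0.31, and the HSP90 co-chaperone STIP1 and HSP90AB1 itself rose by 0.31 and 0.19. That is 21.4% called, beside 15.6% of all genes.

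Genes that make, carry or clear the ligands were compared next. Of 24 steroid hormone enzymes 3 rose and 2 fell, 20.8% beside 15.6% of all genes. HSD11B2, which inactivates cortisol, rose by 0.51 ± 0.07 (SE, adjusted p = 0.00222), on chromosome 16 with neighbours at 0.15. AKR1C1, which inactivates progesterone and whose near-identical paralogues may share its probes, rose by 0.29, HSD17B1, named after its value was seen, by 0.30, and HSD17B10 and HSD17B11 fell by 0.34 and 0.29. Of 15 genes of retinoid metabolism and binding limma called 0 (3 at an unadjusted p under 0.05, and 0 with separate variances). Limma likewise called 0 of 15 genes that handle oxysterols, bile acids and fatty acids (2 at an unadjusted p under 0.05, and 0 with separate variances). Of 11 genes of thyroid hormone and vitamin D handling (9.09% called), SLCO1C1, a thyroid hormone transporter, fell by 0.23.

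Known target genes of the steroid and retinoid receptors were called in both directions. Of 19 oestrogen targets 2 rose and 5 fell, 36.8% called with a median of 0.01, beside 15.6% of all genes with a median of 0.02. PGR was a member of this list, as was STC2, a secreted glycoprotein also induced by stress, which fell by 1.09 ± 0.11 (SE), with SIAH2 at -0.32 and XBP1 at -0.39. CCND1 at 0.25, CA12 at -0.22 and CXCL12 at -0.33 completed the calls and were named after their values were seen. The 6 probe sets of CA12 ran from -0.45 to 0.10. With each of the 6 arrays left out in turn, the calls of CCND1 and CA12 were each lost 5 times and that of CXCL12 4 times. Of 21 glucocorticoid and progestin targets (23.8% called) 2 rose and 3 fell: HSD11B2 as above, CEBPB at -0.72 ± 0.12 (SE, adjusted p = 0.00457), CITED2 at -0.38, the glutamine synthetase gene GLUL at -0.25 and, named after its value was seen, DUSP1 at 0.22. FKBP5 and TSC22D3, the most widely used glucocorticoid markers, both named outside the rule, stood at 0.20 and -0.13 and did not pass (adjusted p = 0.0571 and 0.185). Of 15 retinoic acid targets (20% called) the homeobox genes MEIS1 and MEIS2 fell by 0.49 and 0.40 and HOXB4 rose by 0.34.

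Most of the called targets of the lipid-sensing receptors were lower in the myocilin line. Of 16 targets of LXR, the oxysterol receptor, 0 rose and 4 fell, with APOE at -0.40, APOC1 at -0.34, the lipoprotein lipase gene LPL at -0.28 and the desaturase gene SCD at -0.27. ABCA1 and ABCG1, the cholesterol exporters most used as LXR readouts, both named outside the rule, stood at -0.03 and 0.13 and did not pass. Of 19 PPAR targets 1 rose and 4 fell. The mitochondrial carrier gene UCP2 fell by 0.60 ± 0.07 (SE, adjusted p = 0.000823), ACAA2, LPL and, named after its value was seen, ACADM fell by 0.35, 0.28 and 0.28, and the lipid droplet gene PLIN2 rose by 0.35. Probe sets of PLIN2 stood at 0.67 and 0.02. ACAA2 lies on chromosome 18, where its neighbours stood at -0.17. The called shares were 25% and 26.3%, beside 15.6% of all genes, and LXR and PPAR lists share LPL. The median differences of the whole lists were small, -0.05 and -0.03, beside 0.02 for all genes.

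For the remaining receptors, NFIL3 and NPAS2, both repressed by REV-ERB proteins and activated by ROR proteins, rose by 0.36 and 0.27 among 11 such targets, and 0 fell. The called share of 18.2% lay near the 15.6% of all genes. BHLHE40, at -0.33, was the only call among 13 thyroid hormone and vitamin D targets (7.69% called). Limma called 0 of 14 targets of the bile acid and xenobiotic receptors (5 at an unadjusted p under 0.05, and 0 with separate variances) and 0 of 12 HNF4 targets (1 at an unadjusted p under 0.05, and 0 with separate variances). Among all 18338 genes, 5503 had an unadjusted limma p under 0.05. Of the 41 called partner, ligand and target genes that are not receptors, 16 were called without each array in turn, namely PPRC1, NCOA4, CTBP2, BAG1, HSD11B2, CEBPB, STC2, SIAH2, XBP1, MEIS1, MEIS2, APOE, SCD, UCP2, PLIN2 and ACAA2.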

How the data were processed

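Arrays were assigned to lines by source name and numbered in accession order. The table holds values that the authors deposited on a log2 scale. The log base is inferred from the values, and for background correction, summarisation, normalisation and centring the method is not given in the sources used here. The median of each array was 0, and 57.3% of probe sets read exactly 0 on at least 1 array. Of 41751 probe sets, 37460 had 1 gene in the platform annotation, 1728 several and 2563 none, the last unnamed here. Entrez identifiers of 37416 matched the RefSeq table of GRCh38.p14, which gave symbols and chromosomes. Probe sets of a gene were averaged.

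Two-sided tests between the lines used lmFit and eBayes from limma 3.58.1 (R 4.3.3) over all genes and over all probe sets, and calls were made at a Benjamini-Hochberg adjusted p under 0.05. Differences are myocilin minus control, and precision is limited by 3 arrays per line. The fit was tested on simulated data with independent noise for each gene. That checks the code only, since it holds no genes that differ together and no difference between single lines. Every receptor was named, then up to 4 called genes of each partner, ligand or target list by p, and the exceptions are marked. Members and lists were chosen with earlier results of these data known. Lists are described by counts and medians, without a set test. Alternatives were quantile normalisation, trended robust eBayes, array weights, probe sets ending in _x_at, _s_at or _a_at left out, 1 probe set per gene (the first by ID), subtraction of the median of the 50 nearest genes, a Welch test per gene (separate variances for each line) and each array left out.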

Additional observations from a re-analysis of the deposited data

Results flagged for a closer look

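A probe set that the annotation assigns to both NR1D1 and THRA, genes that overlap on opposite strands, was left out of the receptor comparison and stood above the control arrays. It read 0.61, 0.45 and 0.16 on the myocilin arrays and -0.07, -0.15 and -0.15 on the control arrays, a log2 difference of 0.53 ± 0.11 (SE, limma adjusted p = 0.0133). The other 2 probe sets of the same pair stood at -0.07 and 0.16 (adjusted p = 0.776 and 0.248). Which of the genes the signal comes from cannot be told apart.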

How the results depend on the processing

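PGR, NR2E1 and NR2F1 kept direction and call in all alternatives except the Welch test per gene, where the adjusted p was 0.076, 0.204 and 0.122 and where MYOC was not called either (adjusted p = 0.097). That test estimates each variance from 3 arrays and called 44 of all genes against 2866, with 0 receptors of any subfamily and 0 receptor probe sets. At an unadjusted Welch p under 0.05 there were 11 of 39 receptors, beside 4005 of 18338 genes. Among the partner, ligand and target lists the Welch test called 1 of 18 corepressors and 0 genes of any other list. Of the 8 receptor calls, 3 were left without probe sets ending in _x_at, _s_at or _a_at, where 31 receptors and 15268 genes could be tested (1856 of all genes and 7 of 72 receptor probe sets called). NR3C1, RXRA and NR2C2 had no other probe set and so no value there, while RARA and PPARA were tested and not called. Of the 8 calls, 4 with 1 probe set per gene, 4 with chromosomal neighbours subtracted and 6 under quantile normalisation (3 higher and 3 lower, against 5 and 3). Steroid receptor calls numbered 1 without those probe sets (4 tested, NR3C1 having no value) and 1 with 1 probe set per gene, against 2. The 2 calls of the retinoid, thyroid hormone and vitamin D receptors became 1 under quantile normalisation and with 1 probe set per gene, and 0 without those probe sets (7 tested, RXRA having no value) and with neighbours subtracted. The 1 lipid-sensing call, PPARA, became 0 in every alternative. With each array left out in turn, all-gene calls ranged from 1613 to 2220 (1613 without myocilin array 1, 1889 without control array 2, 1905 without myocilin array 2). Receptor calls ranged from 4 to 6, being 6 without myocilin array 2 and 4 otherwise, and receptor probe sets from 5 to 10. Steroid calls ranged from 1 to 2, retinoid group calls from 0 to 1, lipid-sensing calls from 0 to 0 and orphan calls from 2 to 3. These counts include genes outside the 8 calls: THRB, lower, without control array 3, and NR1D2, lower, without myocilin array 1. No called gene named here changed sign. A filter on dim probe sets, another background correction and a slide block were not run, since the table holds centred values only. No paired analysis was possible because the titles of the lines share no replicate number.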
